A study of Mus musculus with 2 samples.

Results

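The genes described here handle lipids under the control of 2 groups of nuclear receptors, the liver X receptors (LXR) and the peroxisome proliferator-activated receptors (PPAR), in bone marrow derived macrophages. They are 38 named genes, chosen by symbol: the receptors and their RXR partners, and enzymes, carriers and transporters of cholesterol and fatty acids. A gene was taken as measured where a row of the deposited table carried its symbol and no other, and the row with the highest mean of both arrays stood for it. This gave values for 33 of the 38 genes, out of 19863 genes in the table. Nr1h2, Soat1, Acsl1, Apoc2 and Acsl3 had no row of their own and have no expression values here, the last pair because their rows carried several symbols. The bases upstream of all of these genes were still part of the sequence search described below.

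Macrophages were grown from marrow of mice aged 8 weeks with conditioned medium of the fibroblast line L929, a source of macrophage colony-stimulating factor. One culture was labelled control and the other beta-catenin deficient, and total RNA of each went onto 1 Affymetrix whole-transcript array. Both groups shared age, medium and growth protocol. The sources used here do not give the strain, the deleted allele, the promoter that would drive a Cre, or how many animals went into a culture. The question of the comparison is which macrophage genes differ when beta-catenin, a junction protein and the carrier of the canonical Wnt signal, is lacking. With 1 array per group there is no replicate error, so no test was made, and higher and lower describe these 2 arrays only.

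LXR is switched on by oxidised cholesterol and, paired with RXR, turns on genes that export cholesterol and that make and desaturate fatty acids. PPAR-gamma and PPAR-delta are switched on by fatty acids and their derivatives, also pair with RXR, and turn on genes for taking up, binding, storing and burning fatty acids. In macrophages both receptor groups are known for their part in handling the lipid of engulfed cells and lipoproteins, and in foam cells.

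Values are log2 values from RMA, which corrects background, normalizes the arrays and summarises the probes of a gene. Differences are the array labelled deficient minus control on that log2 scale, and a fold is 2 to the power of the difference. Levels of different genes are not compared, because each gene has its own probes. A gene was counted as higher or lower at 1.5-fold, and was counted at all if the higher of its values reached 7.28, which is the median over the whole table and is called the floor. All 33 measured genes reached it. Ctnnb1, the gene of beta-catenin, stood at 11.29 in control and 11.44 in the array labelled deficient, a difference of 0.15, so the targeted transcript was not lower there. Where the deletion lies relative to the probes is not given, and each direction below rests on the label.

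Of the 33 measured lipid genes, 11 were higher by 1.5-fold or more in the array labelled deficient, 1 was at least 1.5-fold lower and 21 lay in between. Of the 10657 genes that reached the floor, 7.54% were higher by that rule and 8.81% lower, against 33.3% and 3.03% of the lipid genes. At least 2-fold higher were 7 of the lipid genes, where 2.96% of all genes were, and 0 were at least 2-fold lower, where 1.59% of all genes were. The median difference of the lipid genes was 0.20 and that of all genes -0.08. The higher genes were the receptor Pparg, the transporter Abcg1, the lipocalin Apod, the carriers Fabp4 and Fabp5, the lipase Lpl and its inhibitor Angptl4, the desaturases Scd1 and Scd2, and Acadm and Pdk4 of fatty acid oxidation. The lower gene was Fasn. The direction was not shared by all, since 19 of the 33 differences were positive and 14 negative. Of all 10657 genes, 4376 differences were positive and 6281 negative.

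**Figure D1:**
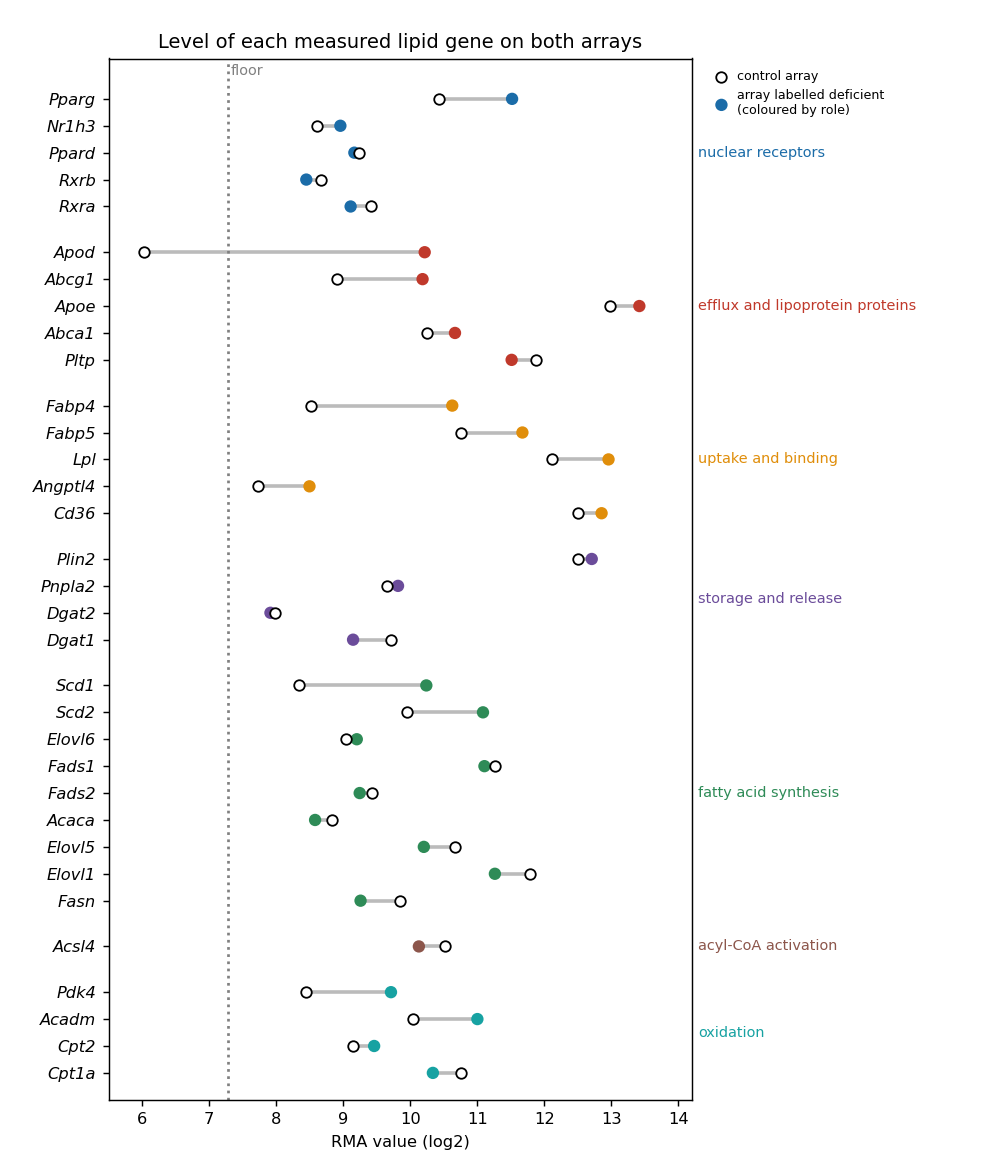
RMA value (log2, horizontal axis) of each of the 33 measured lipid genes on the control array (open points) and on the array labelled deficient (filled points, coloured by role). The longest gap is that of Apod, from 6.03 to 10.22, and Apod in control is the only point left of the dotted floor of 7.28.

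Among the nuclear receptors, Pparg differed most of the 5 measured. Its level was 10.43 in control and 11.52 in the array labelled deficient, a difference of 1.09 or 2.12-fold. Nr1h3, which encodes LXR-alpha, the LXR form abundant in macrophages and itself a target of LXR and PPAR-gamma, went from 8.60 to 8.96, a difference of 0.36 that is short of 1.5-fold. Ppard, the broadly expressed PPAR, stood at 9.24 and 9.17. Its difference of -0.07 turned to 0.0048 when both columns were centred and to 0.022 when a loess curve on level was subtracted. The RXR partners were slightly lower and inside 1.5-fold, with Rxra at 9.42 and 9.11 (-0.31) and Rxrb at 8.67 and 8.45 (-0.22). The median over the 5 receptors was -0.07, with Pparg the only 1 of them past 1.5-fold.

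Pparg has several annotated starts in RefSeq (build GRCm38.p6). The array value does not tell them apart. The bases upstream of each start were searched because LXR, PPAR and RXR bind repeats of the hexamer AGGTCA. Windows of 250 bases upstream were available for 28 of the 38 genes, with 37 starts in all, among 32851 starts of the whole table. The hexamer AGGTCA on either strand was found upstream of 10 of the 37 starts, and upstream of 14.02% of all starts. The starts of Pparg at which it was found are printed with the hexamer in capitals.
Pparg, chr6:115360894-115361143, plus strand: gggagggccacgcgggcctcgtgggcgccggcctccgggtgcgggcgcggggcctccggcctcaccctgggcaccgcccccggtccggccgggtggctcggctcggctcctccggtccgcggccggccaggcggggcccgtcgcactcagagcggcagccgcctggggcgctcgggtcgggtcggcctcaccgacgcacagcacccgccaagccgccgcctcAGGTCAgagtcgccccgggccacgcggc
Pparg, chr6:115362099-115362348, plus strand: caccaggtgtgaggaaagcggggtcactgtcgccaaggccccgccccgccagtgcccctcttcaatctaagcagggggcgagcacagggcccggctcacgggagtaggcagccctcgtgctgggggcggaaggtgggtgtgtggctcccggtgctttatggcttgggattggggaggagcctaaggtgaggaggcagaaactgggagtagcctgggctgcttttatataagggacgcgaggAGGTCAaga
The hexamer begins 28 bases before the start in the upper sequence and 9 bases before it in the lower. A match is a string of letters and no evidence of binding.

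The direct repeat of that hexamer with 1 spacer base, AGGTCANAGGTCA (DR1), is the form known for PPAR with RXR, and the repeat with 4 spacer bases, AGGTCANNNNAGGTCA (DR4), the form known for LXR with RXR. With up to 2 mismatches on either strand, DR1 was found upstream of 5 of the 37 starts and of 3.24% of all starts, and DR4 upstream of 1 of the 37, that of Acsl3, and of 2.57% of all starts. A DR1 match can contain the hexamer, so these counts overlap. The genes with a DR1 match were Cd36, Plin2, Rxra, Elovl1 and Apoc2, and none of the 4 measured among them was 1.5-fold apart between the arrays. Among the higher genes, Abcg1, Fabp4, Fabp5, Lpl, Angptl4, Scd1 and Scd2 had no window and could not show a match. Whether matches and differences go together therefore cannot be read from these windows. The windows of Cd36 and Plin2, both well known PPAR targets, are printed as the matches among genes of uptake and storage, with DR1 and hexamer matches in capitals.
Cd36, chr5:17835897-17836146, minus strand: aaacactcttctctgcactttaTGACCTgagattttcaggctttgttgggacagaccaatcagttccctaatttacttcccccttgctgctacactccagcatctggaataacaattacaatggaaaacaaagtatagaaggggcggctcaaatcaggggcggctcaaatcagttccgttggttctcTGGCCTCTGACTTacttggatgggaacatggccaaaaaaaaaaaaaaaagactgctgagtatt
Plin2, chr4:86670060-86670309, minus strand: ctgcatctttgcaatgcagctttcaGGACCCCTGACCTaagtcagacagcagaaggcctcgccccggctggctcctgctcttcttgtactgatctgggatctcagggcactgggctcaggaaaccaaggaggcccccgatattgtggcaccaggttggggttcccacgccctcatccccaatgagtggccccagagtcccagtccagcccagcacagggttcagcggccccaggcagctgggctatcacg
In Cd36 the hexamer begins 228 bases before the start and the DR1 match 63 bases before it. In Plin2 the DR1 match begins 225 bases before the start and its last 6 letters are the hexamer on the other strand.

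Genes of cholesterol efflux and lipoproteins leaned higher, with a median difference of 0.44. Of 5, 2 were higher by 1.5-fold or more and 0 lower, where 7.54% and 8.81% of all genes were. Abcg1, the transporter that loads cholesterol onto high-density lipoprotein and a classical LXR target, went from 8.90 to 10.18, a difference of 1.28 or 2.43-fold. Abca1, which passes cholesterol and phospholipid to lipid-poor apolipoprotein and is driven by the same receptor, went only from 10.25 to 10.67, a difference of 0.42 or 1.34-fold. Apoe, the apolipoprotein that macrophages secrete and a further LXR target, stood at 12.98 and 13.42, a difference of 0.44. Pltp, which moves phospholipid between lipoproteins and is also an LXR target, was on the other side of 0, at 11.88 and 11.51 (-0.36). The LXR-driven members of this group thus differed in opposite directions, and Abcg1 was the only one of them past 1.5-fold.

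Apod, a lipocalin that binds arachidonic acid and steroids, had the largest difference of all 10657 genes. It stood at 6.03 in control, below the floor, and at 10.22 in the array labelled deficient, a difference of 4.18 or 18.2-fold. The size of that fold depends on a dim control value. Apod is also known in fibroblasts, and markers of fibroblasts and stromal cells were higher in the same array. Of 19 that reached the floor, 15 were higher by 1.5-fold or more and 0 lower, where 7.54% and 8.81% of all genes were. Among the higher ones, Pdgfra was below the floor in control (6.92). The median difference of the 19 markers was 0.88. Their part in the difference of Apod was not tested. The window upstream of Apod is printed because its difference was the largest, and it held none of the 3 motifs searched, so that it is in lower case throughout.
Apod, chr16:31314809-31315058, minus strand: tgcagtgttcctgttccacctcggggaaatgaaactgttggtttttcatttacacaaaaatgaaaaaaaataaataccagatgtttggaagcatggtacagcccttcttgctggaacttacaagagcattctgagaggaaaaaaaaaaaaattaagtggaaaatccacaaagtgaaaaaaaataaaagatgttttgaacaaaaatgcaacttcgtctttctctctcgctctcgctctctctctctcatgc

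All 5 genes of uptake and binding were higher in the array labelled deficient, with a median difference of 0.85. At least 1.5-fold higher were 4 of them, where 7.54% of all genes were. Fabp4, a cytosolic fatty acid carrier of macrophages and fat cells that PPAR-gamma controls, went from 8.52 to 10.63, a difference of 2.11 or 4.31-fold, which ranked 34 among the 10657 genes. Fabp5, the related carrier of skin and macrophages, went from 10.76 to 11.67, a difference of 0.91. It had a further row in the table, which went from 10.47 to 11.51, a difference of 1.04, so both rows of Fabp5 were on the same side. Lpl, the lipase that frees fatty acids from lipoproteins and a target of LXR and PPAR, went from 12.11 to 12.96, a difference of 0.85 or 1.80-fold. Angptl4, which blocks Lpl and is a PPAR target, was higher alongside it, at 7.73 and 8.50, a difference of 0.77. Cd36, the scavenger receptor for oxidised lipoprotein and long-chain fatty acids, stood at 12.51 and 12.86, a difference of 0.35 that is inside 1.5-fold.

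Fabp4 and Lpl are also genes of fat cells, which marrow can hold. Of 12 measured fat cell markers, 10 were below the floor in both arrays, including Adipoq (5.46 and 5.99), Lep (4.91 and 5.41) and Plin1 (6.81 and 6.76). The summed level of the 12 markers on the linear scale was 1330 in control and 1241 in the array labelled deficient. The brightest marker in that sum was Lipe, which went from 8.85 to 8.55 (-0.30) and is also listed here as a gene of lipolysis. The sum also takes in the dim signal of the 10 markers below the floor. The highest difference among the markers was that of Aqp7, from 6.30 to 7.53 (1.23), and the lowest that of Pck1, from 6.62 to 6.04 (-0.58). In RNA of a mixed culture, more cells of a type and more RNA per cell cannot be told apart.

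**Figure D2:**
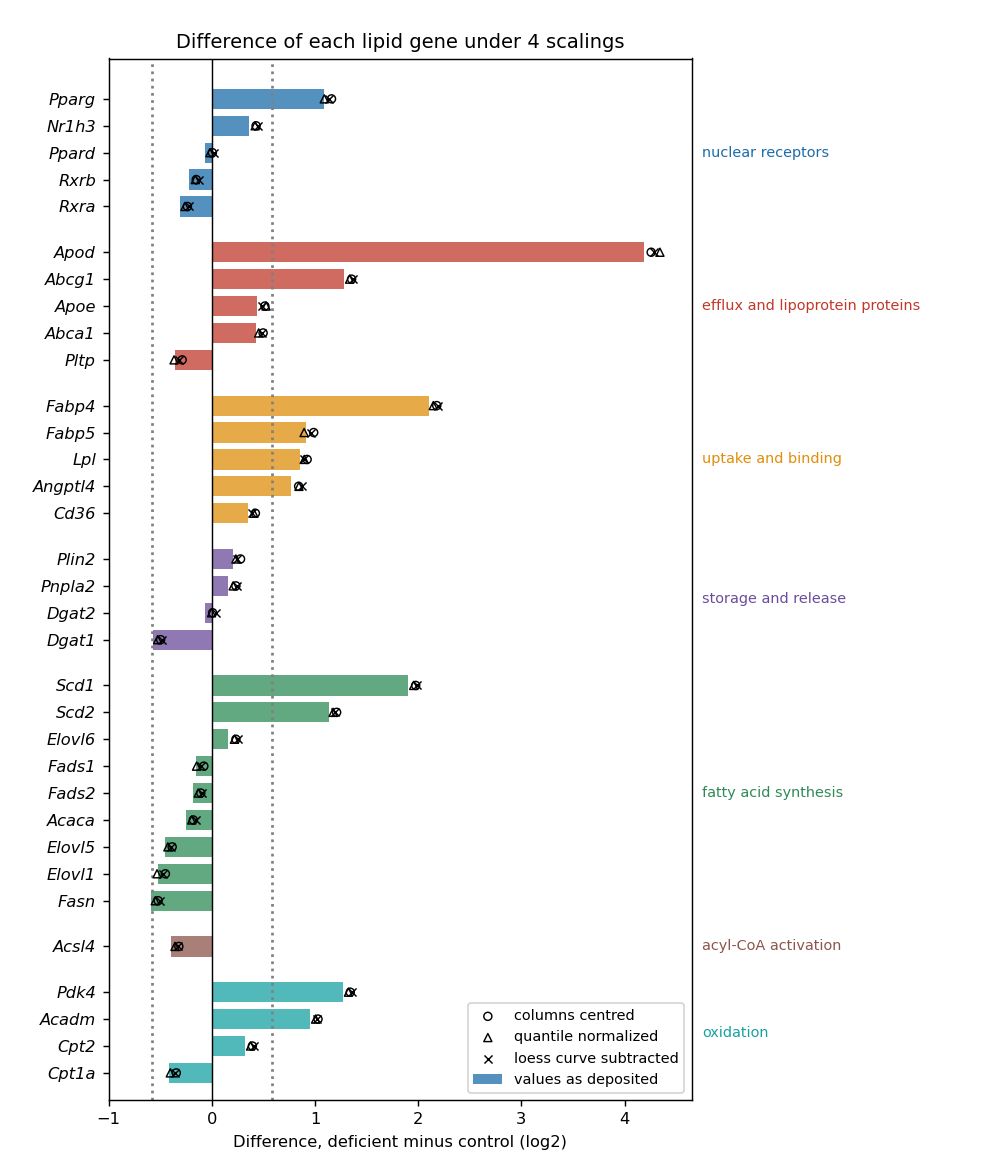
Difference of each of the 33 genes, array labelled deficient minus control (log2, horizontal axis), for the deposited values (bars, coloured by role) and after centring, quantile normalization or subtraction of a loess curve (symbols). Dotted lines mark 1.5-fold; the 11 bars past the right line keep that side under every scaling shown, while Fasn (-0.59) crosses back inside the left line under all 3.

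Storage genes were nearly level. The 4 measured had a median difference of 0.05, and 0 were 1.5-fold apart. Plin2, the coat protein of macrophage lipid droplets, stood at 12.51 and 12.71 (0.20), and Pnpla2, the lipase that opens the breakdown of stored triglyceride, at 9.66 and 9.82 (0.16). Of the enzymes that complete triglyceride, Dgat1 was lower, at 9.72 and 9.15, and its difference of -0.57 was just inside 1.5-fold. Dgat2 stood at 7.98 and 7.91 (-0.07), and its difference was 0.0078 with the columns centred and 0.042 after the loess curve was subtracted. The droplet coat gene thus differed little in the array in which the carriers Fabp4 and Fabp5 were higher.

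Among the 9 genes of fatty acid synthesis, Scd1 and Scd2 were higher and Fasn lower by the 1.5-fold rule. The stearoyl-CoA desaturases, which place the first double bond into saturated fatty acids, had the largest differences of the group: Scd1 went from 8.34 to 10.24, a difference of 1.90 or 3.74-fold, and Scd2 from 9.95 to 11.09, a difference of 1.14 or 2.20-fold. Scd1 and Scd2 are close relatives, and probes may share signal between them. Fasn, which makes palmitate, went from 9.85 to 9.26, a difference of -0.59 or 1.51-fold, and lay at -0.52, -0.55 and -0.51 after centring, quantile normalization and loess, inside 1.5-fold each time. Acaca, which supplies malonyl-CoA, stood at 8.83 and 8.58 (-0.25) on the row kept, but its dimmer row went from 7.86 to 8.23 (0.37), so its direction is not settled by these rows.

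Elongases and the other desaturases lay within 1.5-fold. Elovl1, which extends very long chains, stood at 11.79 and 11.26 (-0.52), and Elovl5, which extends polyunsaturated chains, at 10.66 and 10.20 (-0.46). Elovl6, which turns palmitate toward stearate, stood at 9.04 and 9.20 (0.16). Fads1 and Fads2, the desaturases of polyunsaturated fatty acids, stood at 11.26 and 11.11 (-0.15) and at 9.43 and 9.25 (-0.18). Of the 9 synthesis genes 2 were at least 1.5-fold higher, 1 was lower and 6 lay in between. By that rule 7.54% of all genes were higher and 8.81% lower. The median of the 9 was -0.18. Srebf1, whose product drives many of these enzymes and which is an LXR target, stood at 8.95 and 8.84 (-0.11).

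In fatty acid oxidation, 2 of 4 genes were higher by 1.5-fold or more and 0 lower, where 7.54% and 8.81% of all genes were. The median difference was 0.64. Pdk4, a kinase that turns off pyruvate dehydrogenase and a classical PPAR target, went from 8.45 to 9.71, a difference of 1.27 or 2.41-fold. Acadm, the medium-chain acyl-CoA dehydrogenase of beta-oxidation, went from 10.05 to 11.003, a difference of 0.96 or 1.94-fold. The carnitine palmitoyltransferases, which bring long chains into mitochondria, differed in opposite directions and inside 1.5-fold, with Cpt1a of the outer membrane at 10.76 and 10.34 (-0.42) and Cpt2 of the inner membrane at 9.14 and 9.46 (0.32). Acsl4, which couples arachidonic acid to coenzyme A and was the only 1 of the 3 listed acyl-CoA synthetases with a row of its own, stood at 10.52 and 10.13 (-0.39).

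The windows upstream of Acadm and Pdk4 are printed as those of the higher oxidation genes. Acadm held the hexamer on the other strand, beginning 249 bases before the start and shown in capitals, and Pdk4 held none of the 3 motifs.
Acadm, chr3:153944644-153944893, minus strand: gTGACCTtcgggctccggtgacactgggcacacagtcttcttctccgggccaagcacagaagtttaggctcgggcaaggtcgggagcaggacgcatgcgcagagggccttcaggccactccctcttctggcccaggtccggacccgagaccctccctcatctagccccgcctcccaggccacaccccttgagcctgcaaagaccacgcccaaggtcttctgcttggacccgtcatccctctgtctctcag
Pdk4, chr6:5496279-5496528, minus strand: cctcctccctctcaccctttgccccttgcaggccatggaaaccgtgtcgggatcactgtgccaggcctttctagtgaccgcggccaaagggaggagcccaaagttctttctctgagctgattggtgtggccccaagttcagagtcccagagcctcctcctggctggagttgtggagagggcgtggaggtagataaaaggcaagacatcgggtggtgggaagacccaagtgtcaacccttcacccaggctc

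The higher genes were spread over the range of brightness. Of the 19 lipid genes with a mean level from 9 to 11, 7 were higher by 1.5-fold or more, where 6.90% of 4218 genes of that level were. Of the 8 with a mean level of 11 or more, 2 were higher, where 6.08% of 938 genes were. Of the 6 with a mean level under 9, 2 were higher, where 8.29% of 5501 genes were. In each band the median of the lipid genes was positive (0.14 under 9, 0.16 from 9 to 11 and 0.28 from 11) while that of all genes in the band was not (-0.09, -0.08 and -0.0023).

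**Figure D3:**
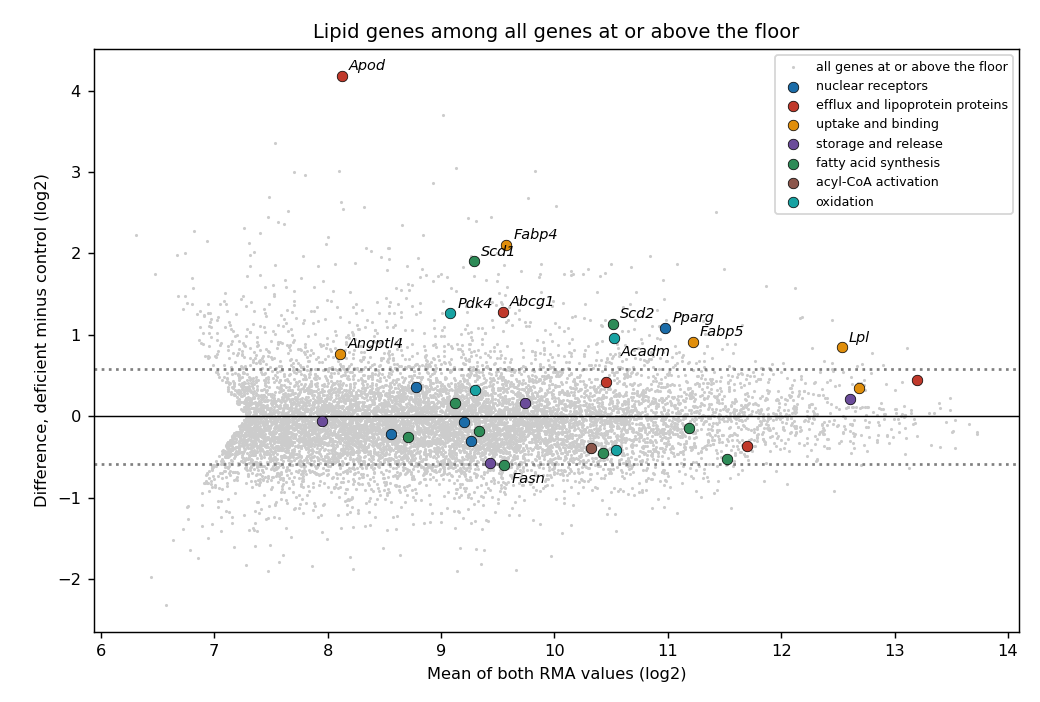
Difference, array labelled deficient minus control (log2, vertical axis), against the mean of both RMA values (log2, horizontal axis) for the 10657 genes at or above the floor (grey) and the 33 lipid genes (coloured by role); genes past 1.5-fold (dotted lines) are named. The named genes span mean levels from 8.11 (Angptl4) to 12.54 (Lpl).

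Other genes of the same pathways were listed by role, with earlier results of these data known. They were past 1.5-fold at about the rate of all genes. Of 66 that reached the floor, 6 (9.09%) were higher by 1.5-fold or more and 5 (7.58%) lower, close to the 7.54% and 8.81% of all genes, with a median of 0.03. Receptor partners and co-regulators were within 1.5-fold in 10 of 10 cases, from Ppargc1b (-0.51) and Insig1 (-0.34) to Ncoa6 (0.05) and Insig2 (0.24), with a median of -0.11. The other PPAR, Ppara (5.61 and 5.80), and Rxrg (5.27 and 5.71) were below the floor in both arrays.

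Other LXR targets and genes of cholesterol ester turnover had a median of -0.21. By the 1.5-fold rule 2 of 13 were higher and 1 lower, where 7.54% and 8.81% of all genes were. Cyp27a1, which makes the LXR ligand 27-hydroxycholesterol, went from 8.87 to 9.53 (0.66), and Lipa, the lysosomal acid lipase, from 12.39 to 13.03 (0.64). Abcg4 (-0.60, from 7.29 to 6.69, near and below the floor) and Npc1 of lysosomal cholesterol exit (-0.43) were lowest. Mylip, which marks the LDL receptor for breakdown, and Lpcat3, which remodels phospholipids, are LXR targets in macrophages and differed by 0.01 and -0.31, inside 1.5-fold.

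Of 17 other genes of uptake, droplets and lipolysis, 2 were higher by the 1.5-fold rule and 4 lower. By the same rule 7.54% and 8.81% of all genes were, and the median of the 17 was -0.17. The lipoprotein receptor Vldlr (0.86) and the phosphatidate phosphatase Lpin1 (0.72) were highest, and the acyltransferase Agpat2 (-0.80) and the fatty acid transporter Slc27a4 (-0.71) lowest. Vldlr was below the floor in control, at 6.94. Among the lower genes, G0s2 (7.22) and Gpihbp1 (7.22) were just below it in the array labelled deficient. Of 8 other genes of synthesis and elongation, 0 were 1.5-fold apart, and the median was 0.11. They ran from Acsl5 (-0.41) and Tecr (-0.29) to Me1 (0.26) and Hsd17b12 (0.58).

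Other genes of fatty acid oxidation leaned one way by small amounts. Of 18, 15 differences were positive and 3 negative, where 4376 of all 10657 genes were positive and 6281 negative. By the 1.5-fold rule 2 were higher and 0 lower, where 7.54% and 8.81% of all genes were. The median was 0.21 against -0.08 for all genes. Decr1, which oxidises unsaturated chains, went from 8.15 to 9.06 (0.91), and Etfa, which passes electrons from the dehydrogenases, from 9.05 to 9.93 (0.88). The carnitine acetyltransferase Crat (-0.36) and Pdk2 (-0.19) were lowest.

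**Figure D4:**
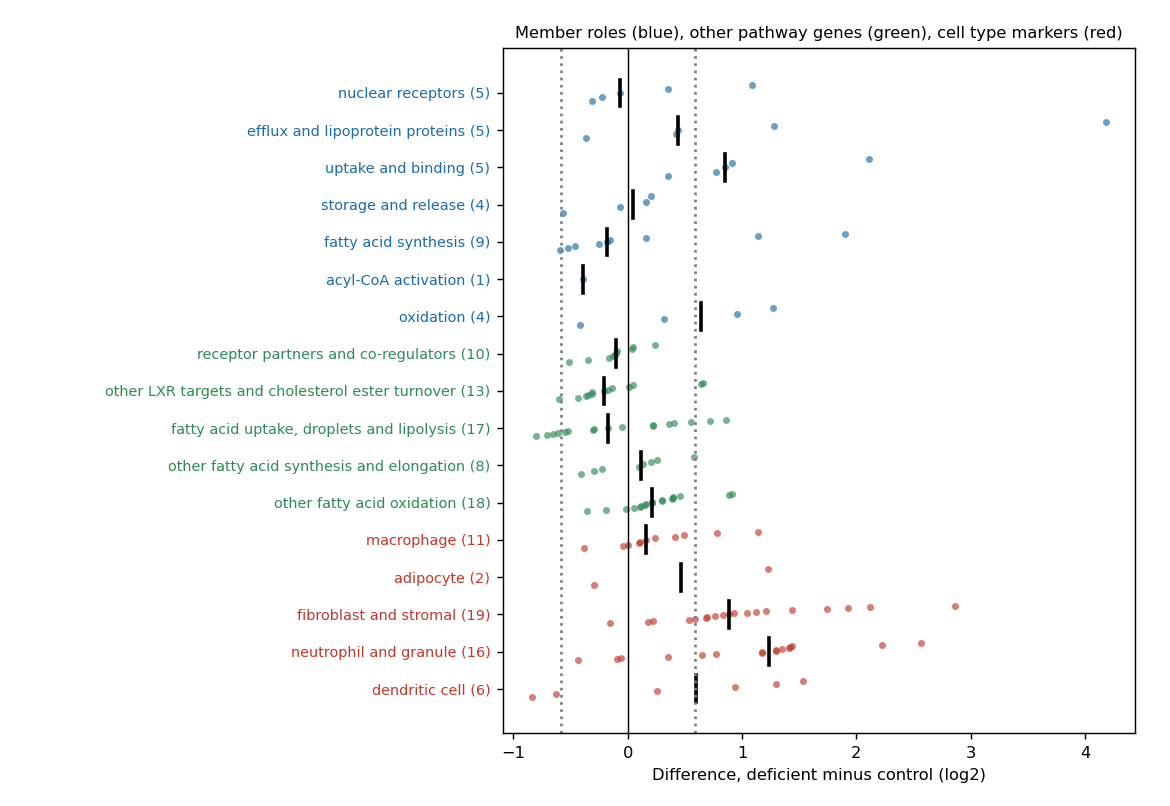
Differences, array labelled deficient minus control (log2, horizontal axis), of the genes in each list that reached the floor; each point is a gene, the black bar is the list's median, and the number of genes stands in brackets. Uptake and binding (median 0.85) lies to the right of the other pathway lists. Stromal (0.88) and neutrophil and granule markers (1.24) lie further right than macrophage markers (0.16).

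Most macrophage markers that reached the floor stood at like levels in both arrays. Of the 14 measured, Marco, Cd163 and Timd4 were below the floor in both. Of 11 markers that reached the floor, Adgre1 (12.23 in both arrays) and Csf1r (12.25 and 12.35) among them, 2 were higher by the 1.5-fold rule and 0 lower, from Siglec1 (1.14) down to Lyz2 (-0.38), and the median was 0.16. Most markers in the list of stromal cells and in that of neutrophils and granules were higher in the array labelled deficient. The 22 stromal markers summed to 19845 on the linear scale in control and 36653 in the array labelled deficient, from Cxcl12 (2.87) down to Mfap5 (-0.15). Of 16 neutrophil and granule markers, 12 were higher by the 1.5-fold rule and 0 lower, from Retnlg (2.57) down to Camp (-0.43). Among the higher ones, Retnlg (7.04), Prtn3 (7.21) and Ctsg (6.99) were below the floor in control. The median of the 16 was 1.24, and they summed to 9214 and 19497. Besides Camp, those inside 1.5-fold were Csf3r (-0.06), Cebpe (-0.10) and Ly6g (0.35). Of all genes, 7.54% were higher and 8.81% lower by that rule. Dendritic cell markers went both ways, with 3 of 6 higher and 2 lower, from Itgax (1.53) down to Ccl17 (-0.84). Of the higher ones, Kmo (6.23) and Cd209a (6.56) were below the floor in control. The lower ones, Ccl17 (6.97) and Ccr7 (7.23), were below it in the array labelled deficient. Without a floor, 3 of 13 were higher and 4 lower. The 13 measured summed to 3435 and 5062, which rests largely on Itgax (9.61 and 11.14) and Irf8 (10.41 and 10.66). Below the floor in both arrays were 7 of the 13, including Zbtb46, Flt3 and Xcr1. The part of these cells in the differences of the lipid genes was not tested.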

How the data were processed

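Total RNA of 2 macrophage cultures, 1 per group, was measured on 1 array each. The deposited table held 25917 rows of log2 values that the authors made with RMA, per the submitters' processing notes. The sources used here do not give the RMA settings, a row filter, the genome build or whether both columns came from 1 run. Log2 was read from the range of the values (2.12 to 14.11). No further normalization was applied.

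Gene symbols of the rows came from GEO's platform annotation: 21624 carried 1 symbol, 1568 several and 2725 none. Entrez IDs of 21537 were found in a RefSeq table (GRCm38.p6). Where a gene had several rows (947 of 19863 genes), the one with the highest mean was kept. Upstream windows came from RefSeq, GRCm38.p6. Python 3.11.15, pandas 2.3.3 and statsmodels 0.14.6 (loess span 0.3) were used, and the counting and scaling were tested on simulated data. The number of arrays limits the precision.

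All 38 genes are named. Of each pathway list the 2 highest and 2 lowest genes at or above the floor are named, and of each marker list the highest and the lowest. Other genes named (among them Srebf1, Mylip, Lpcat3, Ppara, Rxrg, Adipoq, Lep, Plin1, Adgre1, Csf1r, Zbtb46, Flt3 and Xcr1) were chosen after their values were seen. The genes and lists were chosen with earlier results of these data known. Alternatives were other floors, other scalings and other rows per gene.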

Additional observations from a re-analysis of the deposited data

How the results depend on the processing

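The count of lipid genes at least 1.5-fold higher was 11 under each scaling, without a floor, with the floor on the mean and with other rows per gene, and 10 of 28 with a floor at the 75th percentile. The count of lower genes was 0 instead of 1 after centring, quantile normalization and loess, because Fasn lay near 1.5-fold. The median over the lipid genes was 0.32 instead of 0.20 with the dimmest row of each gene, where Acaca turned positive, and 0.18 to 0.26 when each gene was left out in turn. With the floor at the 75th percentile the storage median was 0.16 instead of 0.05. Without a floor the median was -0.25 for fat cell markers, -0.24 for dendritic cell markers (0.60 with the floor) and -0.014 for other genes of synthesis and elongation. Of all genes past 1.5-fold, 46.1% were higher with the deposited values, 58.7% after centring, 56.2% after quantile normalization and 62.0% after loess. No array could be left out, as each group had 1, so the spread between cultures is unknown. No paired analysis was possible because each group had 1 array and the labels do not link the 2 cultures as a pair.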

Other observations

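Acaca and Fabp5 were the lipid genes with more than 1 row. The rows of Fabp5 differed by 0.91 and 1.04 and those of Acaca by -0.25 and 0.37, so that the mean of the rows of Acaca differed by 0.06. What separates the rows of Acaca was not tested.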
